A study of Mus musculus with 46 samples.

Results

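The cell cycle and proliferation genes described here were 38 genes chosen by symbol, and 37 of them had a probe set under their own symbol on the array. Ccnb1 had none and is not analysed here. Top2a had 2 probe sets and the other 36 genes had 1, and Top2a was read from the brighter one. These 37 probe sets stood among 23410 with a gene symbol and 35512 in all. They were read in the livers of 46 SKH:QS mice, 1 array per mouse, with total RNA labelled for an Affymetrix whole-transcript array. An experiment on virgin mice held 6 untreated mice, 6 given a sunscreen formulation with no zinc oxide, 6 given the sunscreen with 68ZnO microparticles (micro ZnO) and 6 given it with 68ZnO nanoparticles (nano ZnO). A separate experiment on pregnant mice at about day 17 of gestation held 5, 6, 5 and 6 mice in the same order. Sunscreens went onto the back 6 times over 4 days and livers were taken on day 5. The protocols are worded alike for all mice, with single housing, collars against licking, and a cycle of 14 h light and 10 h dark. The labels give no sex, age, extraction batch or pairing of mice. Pregnancy was studied in an experiment of its own, so pregnancy and experiment cannot be told apart anywhere below.

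A dividing cell passes from growth into DNA synthesis and then into mitosis, and each step has its own genes. Cyclins D and E carry the cell out of the first growth phase, the MCM helicase and its loader Cdc6 open the DNA for copying, and ribonucleotide reductase and thymidylate synthase supply the nucleotides. Cdk1 with cyclins A and B starts mitosis, Aurora and Polo kinases and the Bub checkpoint proteins order it, and kinesins with Ect2, Racgap1 and Prc1 complete the split into daughter cells. The adult liver is largely quiescent and most of its hepatocytes divide rarely outside injury, while in rodents the maternal liver enlarges in gestation.

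Genes of the cycle often share short upstream sequence motifs, so the 250 bases before the annotated start were searched on both strands. The motifs were the CCAAT box (letters CCAAT), the cell cycle homology region or CHR (TTTGAA or TTCGAA) and an E2F site (TTTCCCGC, TTTGGCGC, TTTCGCGC or TTTGCCGC). The RefSeq promoter table of build GRCm38.p6 held 29 of the 37 genes. It had no entry for Ccne2, Kif20a, Tpx2, Foxm1, Mcm4, Ccnd1, Ccna2 and Aurkb. Ect2, Mcm7 and Prc1 had 2 windows each, and a motif in either counted for the gene. A CCAAT box stood upstream of 24 of the 29 genes (82.8%) and of 37.5% of all 27025 genes with such a promoter. A CHR stood in 12 (41.4%, against 19.6%) and an E2F site in 5 (17.2%, against 2.16%). Cdk1 and Mcm7 held all 3 kinds, 2 of 29 (6.90%, against 0.222%). The 4 windows below belong to genes whose levels went opposite ways between the experiments, Mki67 and Cdc6 higher and Cdk1 and Ncapg lower in pregnant mice, and were chosen after those values were seen. They lie at chr7:135716380-135716629 (minus strand, Mki67), chr11:98907901-98908150 (plus, Cdc6), chr10:69352913-69353162 (minus, Cdk1) and chr5:45669675-45669924 (plus, Ncapg). Each is read 5′ to 3′ towards the gene, with motif matches in capitals.
Mki67: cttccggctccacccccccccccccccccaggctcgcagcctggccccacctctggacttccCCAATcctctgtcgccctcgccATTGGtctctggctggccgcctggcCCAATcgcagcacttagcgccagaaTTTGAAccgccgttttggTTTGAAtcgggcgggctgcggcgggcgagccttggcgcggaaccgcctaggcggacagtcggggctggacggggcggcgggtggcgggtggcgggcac
Cdc6: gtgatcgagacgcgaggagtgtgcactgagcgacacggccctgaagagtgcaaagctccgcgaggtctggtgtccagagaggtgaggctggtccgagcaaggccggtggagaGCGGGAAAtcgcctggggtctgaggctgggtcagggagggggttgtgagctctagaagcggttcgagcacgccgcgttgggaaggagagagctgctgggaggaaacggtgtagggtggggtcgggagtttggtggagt
Cdk1: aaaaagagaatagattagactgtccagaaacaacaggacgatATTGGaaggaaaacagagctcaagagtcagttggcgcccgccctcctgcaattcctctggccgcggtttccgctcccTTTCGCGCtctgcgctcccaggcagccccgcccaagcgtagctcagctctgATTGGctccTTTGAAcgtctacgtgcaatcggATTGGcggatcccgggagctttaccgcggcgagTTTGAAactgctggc
Ncapg: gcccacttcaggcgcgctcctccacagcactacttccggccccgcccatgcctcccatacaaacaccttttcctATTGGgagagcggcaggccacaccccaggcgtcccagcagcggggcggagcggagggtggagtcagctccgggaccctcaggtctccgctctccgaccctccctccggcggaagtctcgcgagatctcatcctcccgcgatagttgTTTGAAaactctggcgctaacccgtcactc
Mki67 had 3 CCAAT boxes and 2 CHR matches, Ncapg 1 of each, and Cdk1 3 CCAAT boxes, 2 CHR matches and 1 E2F site. Cdc6 had 1 E2F site, beginning 138 bases before the start, and neither of the other motifs. A match is a run of letters and says nothing here about binding.

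All values below are log2 intensities, which the authors made with RMA, and a difference of 1 is a doubling. A gene was called higher or lower in a comparison at a Benjamini-Hochberg adjusted p under 0.05 in limma over the 23410 probe sets. A value after ± is a standard error unless SD is named. The signal of these genes was low. Averaged over all arrays on 1 common scale, 31 of the 37 lay below the middle of the named probe sets and 12 below percentile 25, with Bub1 lowest at percentile 6.28. Ccnd1 (81.3) alone lay above percentile 75. A probe set's brightness also depends on its probes, so these ranks give no order of transcript abundance. Hepatocyte markers such as Alb and Apoa1 (11 measured) had a median percentile of 99.8 to 99.9 in each of the 8 groups. No library stood apart over the 37 genes together (the plot of means per array): the mean per array ran from 3.97 to 4.16 in virgin untreated, 3.92 to 4.00 in virgin formulation, 3.99 to 4.16 in pregnant untreated and 3.94 to 4.04 in pregnant formulation mice. The spread of whole arrays did differ. Their interquartile range was 2.97 ± 0.07 (SD, n = 6) in virgin untreated and 2.83 ± 0.05 (SD, n = 6) in virgin formulation mice, and 3.17 ± 0.03 (SD, n = 5) and 3.11 ± 0.05 (SD, n = 6) in the matching pregnant groups.

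**Figure D1:**
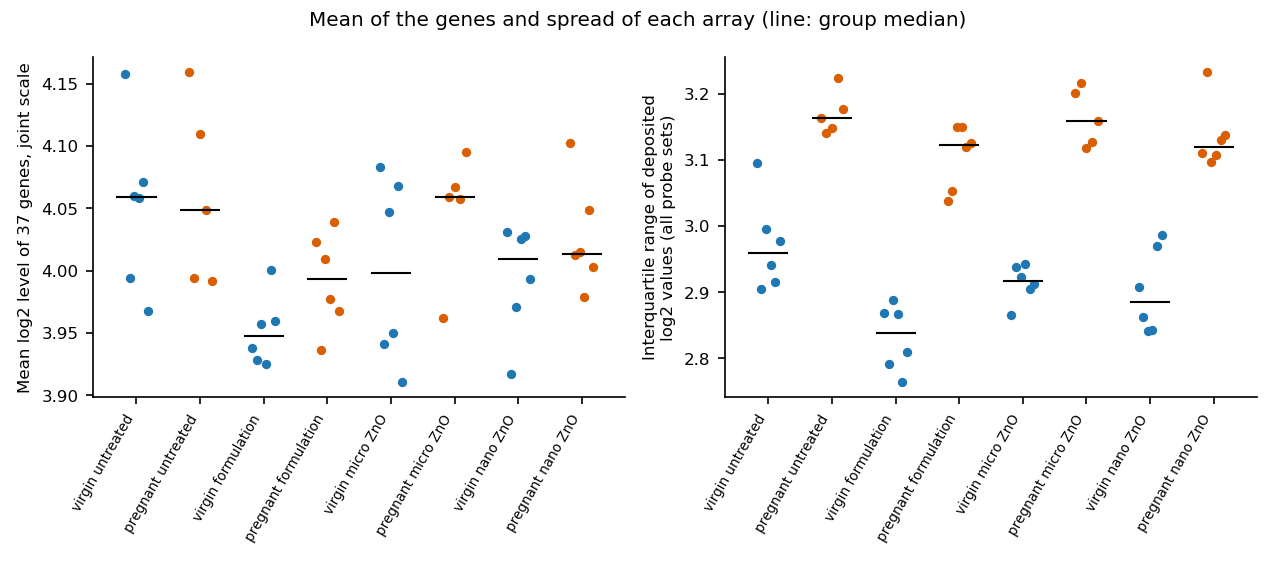
Mean log2 level of the 37 genes in each array after joint quantile normalization (left) and interquartile range of each array's deposited log2 values over all probe sets (right). Each point is 1 array and the line is the group median. Means of the genes overlap between all groups, while the pregnant arrays have the wider range on the right.

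In virgin mice the formulation without zinc was followed by small changes in both directions. Rrm1, the large subunit of ribonucleotide reductase, Ect2 and Ncapg, a condensin subunit, were lower, and Cdc6 and the 2 Aurora kinases were higher, each by less than 1.4-fold. In all, 4 genes rose and 4 fell, 8 of 37 or 21.6%, where 26.5% of all probe sets were called, with 11.5% rising and 15% falling. The median change of the 37 genes was 0.02, against 0.03 for all probe sets. In whole liver a fall cannot be divided between fewer cells of a type and less RNA per cell.

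Rrm1 ran from 5.64 to 6.03 (median 5.89) in virgin untreated mice and from 5.33 to 5.54 (median 5.41) with formulation. These groups did not overlap, as was so for this 1 gene of the 37 (2.70%) and for 9.50% of all probe sets. Its difference was -0.46 ± 0.08 (adjusted p = 0.00052). Cdc6 ran from 3.78 to 4.12 (median 3.87) untreated and from 4.08 to 4.61 (median 4.37) with formulation. The ranges met only at their ends, and the difference was 0.43 ± 0.09 (adjusted p = 0.00184). Ect2, which is needed for cytokinesis, spanned 3.88 to 4.46 (median 4.32) and 3.70 to 4.07 (median 3.94), a difference of -0.34 ± 0.08 (adjusted p = 0.00499). Ncapg spanned 4.95 to 5.36 (median 5.24) and 4.73 to 5.08 (median 4.79), a difference of -0.35 ± 0.09 (adjusted p = 0.00599). Most formulation arrays were low for both genes, with some overlap.

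The Aurora kinases went the other way. Aurkb, the kinase of the chromosomal passenger complex, spanned 4.34 to 5.02 (median 4.68) untreated and 4.87 to 5.20 (median 5.02) with formulation, a rise of 0.36 ± 0.10 (adjusted p = 0.011). Aurka, the spindle pole kinase, spanned 4.69 to 5.54 (median 4.97) and 5.29 to 5.55 (median 5.35), a rise of 0.36 ± 0.11 (adjusted p = 0.0174). The single highest untreated array reached the formulation range. Ccnb2, a partner of Cdk1, rose by 0.21 ± 0.07 (adjusted p = 0.027), from 4.32 to 4.68 (median 4.49) untreated to 4.60 to 4.85 (median 4.68). Mcm3, a helicase subunit, fell by 0.38 ± 0.12 on the log2 scale (adjusted p = 0.0185), from 4.42 to 5.29 (median 4.89) to 4.38 to 4.73 (median 4.50). Cdk1 itself spanned 4.41 to 4.80 (median 4.65) and 4.55 to 5.22 (median 4.93) and was not called (0.30 ± 0.11, adjusted p = 0.0507). Ccnd1, cyclin D1, had the widest spread: 7.31 to 8.74 (median 7.57) untreated and 6.34 to 7.64 (median 7.05) with formulation. Its difference of -0.67 ± 0.26 was the only one past 1.5-fold and missed the call (adjusted p = 0.056).

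Some of these 8 calls depended on the arrays and settings used. Without virgin untreated replicate 1, whose interquartile range of 3.09 was the highest of its experiment, 5 genes were called and Aurka, Ccnb2 and Mcm3 were not. Mcm3 was also lost without virgin untreated replicate 4 (adjusted p = 0.0513) and Ccnb2 without virgin formulation replicate 2 (adjusted p = 0.0723). A further quantile normalization within the experiment ended the calls of Aurka, Aurkb and Ccnb2, and the replicate block that of Ccnb2. With each array's interquartile range as a covariate 0 were called, Rrm1 being at -0.25 (adjusted p = 0.272) and Cdc6 at 0.36 (adjusted p = 0.209). That range did not overlap between the groups (2.90 to 3.09 untreated, 2.76 to 2.89 with formulation), so here it is largely confounded with the formulation. Markers of other cells were also called in this comparison: 7 of 16 neutrophil and myeloid precursor markers were higher and 6 of 14 endothelial markers lower. Of all probe sets 11.5% were higher and 15% lower. Only 1 of 13 macrophage markers, Cd68, was lower, which is below that share. The neutrophil count was 4 without formulation replicate 3 and the endothelial count 3 without formulation replicate 5. The macrophage count was 0 without formulation replicate 1, 2, 5 or 6 or untreated replicate 1, 4 or 6. Of 13 stellate and fibroblast markers 3 to 6 were called, in either direction, when 1 array was left out. With all arrays 26.5% of all probe sets were called in either direction. The covariate of array spread left 1 neutrophil, 0 endothelial, 2 macrophage and 0 stellate and fibroblast markers called. Their part in the changes of the 37 genes was not tested.

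Fewer of these genes were called with the particle sunscreens than with formulation in virgin mice, as was so for all probe sets. With micro ZnO 1 of 37 was called (2.70%), against 4.43% of all probe sets, 1.63% higher and 2.8% lower. No gene of the 37 had groups without overlap there, against 3.31%. With nano ZnO 2 were called (5.41%), against 11.9%, 4.77% higher and 7.18% lower. Ccne1, cyclin E1, rose in both. It spanned 4.64 to 4.84 (median 4.77) untreated, 4.82 to 5.35 (median 5.04) with micro ZnO and 4.88 to 5.24 (median 5.13) with nano ZnO. Every nano ZnO array exceeded every untreated one, as was so for 1 of 37 genes and 4.96% of all probe sets. The differences were 0.31 ± 0.09 (adjusted p = 0.0389) and 0.34 ± 0.09 (adjusted p = 0.0114). The 2 comparisons share the untreated arrays. The formulation arrays spanned 4.71 to 5.14 (median 4.96). Mcm3 spanned 4.28 to 4.79 (median 4.54) with micro ZnO and 4.34 to 4.79 (median 4.50) with nano ZnO, beside the untreated and formulation values above. Its change was -0.37 ± 0.12 in both, called with nano ZnO (adjusted p = 0.0379) and not with micro ZnO (adjusted p = 0.0722). Mki67, the proliferation marker, differed from untreated by 0.11 ± 0.09 with formulation (adjusted p = 0.361), and all 3 sunscreen arms left it uncalled. Beside these counts, 6 of 14 endothelial markers were lower with micro ZnO and 7 with nano ZnO, and 5 of 16 neutrophil and myeloid precursor markers were higher with nano ZnO. Stellate and fibroblast markers were lower for 4 of 13 with micro ZnO (30.8%) and 2 of 13 with nano ZnO (15.4%). For micro ZnO the endothelial count was 3 on leaving out untreated replicate 3, 4 or 5 or replicate 1 or 5 of the micro ZnO arm, and the stellate count was 2 on leaving out untreated replicate 1, 4 or 6 or replicate 1 or 4 of that arm. With nano ZnO the stellate count was 1 without nano ZnO replicate 1. The covariate of array spread gave 3 and 1 endothelial and 1 and 0 stellate calls for micro and nano ZnO. Their part was not tested either.

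The micro ZnO count rested on single arrays. It was 0 without virgin micro ZnO replicate 1, 2, 5 or 6 or without virgin untreated replicate 1, 4 or 5, and 3 without virgin untreated replicate 6. That of nano ZnO was 1 without nano ZnO replicate 1, 2, 3 or 4 or untreated replicate 1, 3 or 4, while leaving out nano ZnO replicate 6 gave 4 and leaving out untreated replicate 6 gave 5.

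Against the formulation, the particle arms lay back near the untreated values for Rrm1 and Cdc6. Rrm1 spanned 5.67 to 6.06 (median 5.78) with micro ZnO and 5.65 to 6.06 (median 5.71) with nano ZnO, above every formulation array. The differences were 0.39 ± 0.08 (adjusted p = 0.00614) and 0.35 ± 0.08 (adjusted p = 0.02). Cdc6 spanned 3.49 to 3.98 (median 3.89) and 3.91 to 4.17 (median 3.99), which gave -0.53 ± 0.09 (adjusted p = 0.00192) and -0.33 ± 0.09 (adjusted p = 0.0452). Every micro ZnO array lay below every formulation array. Ncapg was called with micro ZnO (0.30 ± 0.09, adjusted p = 0.0379) at 4.97 to 5.33 (median 5.15), and the nano ZnO arrays spanned 4.86 to 5.32 (median 5.10, not called, adjusted p = 0.109). Nusap1, a spindle protein, was lower with nano ZnO, 2.90 to 3.09 (median 2.99) against 3.12 to 3.30 (median 3.22), a difference of -0.23 ± 0.07 (adjusted p = 0.0491). That is 3 of 37 genes for each particle (8.11%), against 6.83% of all probe sets for micro ZnO (5.14% higher, 1.69% lower) and 3.25% for nano ZnO (2.52% higher, 0.722% lower). Groups did not overlap for 2 of 37 genes in each (5.41%), against 3.77% and 1.82% of all probe sets. Both comparisons share the formulation arrays with each other and with the change from untreated, so these returns are not separate evidence of it. The Ncapg call with micro ZnO was lost in 9 of 12 fits that left out 1 array (largest adjusted p = 0.0997): without formulation replicate 1, 2, 3, 4 or 6 or micro ZnO replicate 1, 2, 3 or 4. With nano ZnO the calls of Nusap1 and Cdc6 were lost in 10 and 8 of 12 such fits. The nano ZnO count was 1 without formulation replicate 1, 2 or 5 or nano ZnO replicate 1 or 2, and 0 without nano ZnO replicate 5 or 6. Between nano ZnO and micro ZnO 0 of 37 genes and 0% of all probe sets were called. By unadjusted p under 0.05 there was 1, Cdc6 (0.20 ± 0.09, adjusted p = 0.993), where 4.72% of all probe sets passed.

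In pregnant mice 0 of the 37 genes were called in any of the 6 comparisons between arms. Few probe sets were called at all: 0.0598% for formulation, 0.107% for micro ZnO and 0.0214% for nano ZnO against untreated, and 0% in the comparisons among the sunscreens. At an unadjusted p under 0.05 there were 5, 1 and 1 genes against untreated, with 12.3%, 9.08% and 10.2% of all probe sets. Against the formulation there were 2 genes for micro ZnO and 1 for nano ZnO, with 7% and 3.07% of all probe sets, and between the particles 0, with 4.64%. The smallest p values there belonged to Ccne1 for micro ZnO (-0.26 ± 0.12, adjusted p = 0.696) and to Birc5, an inhibitor of apoptosis in the passenger complex, for nano ZnO (-0.24 ± 0.10, adjusted p = 1). Rrm1 read 4.99, 4.97, 5.14, 5.32 and 4.82 in the untreated arrays and 4.57 to 4.97 (median 4.73) with formulation, a difference of -0.32 ± 0.10 (adjusted p = 0.283). The ranges overlapped. Ccnd1 read 7.27, 6.15, 6.68, 5.97 and 7.62 untreated, a spread of over 1 unit within the group. It ran from 5.56 to 6.59 (median 6.12) with formulation, read 6.08, 6.27, 6.05, 5.41 and 6.60 with micro ZnO, and ran from 6.12 to 6.68 (median 6.32) with nano ZnO. The differences were -0.70 ± 0.25, -0.66 ± 0.26 and -0.38 ± 0.25, with adjusted p of 0.313, 0.408 and 0.576. Mcm6, a helicase subunit, read 4.39, 3.80, 4.23, 4.42 and 3.85 untreated and differed by -0.35 ± 0.14 with formulation (adjusted p = 0.332). In virgin mice it had differed by -0.33 ± 0.12 with nano ZnO (adjusted p = 0.0819), from 4.50 to 5.42 (median 4.79) untreated to 4.37 to 4.70 (median 4.58). Cdc20, an activator of the anaphase-promoting complex, differed by 0.20 ± 0.10 with micro ZnO (adjusted p = 0.564), and Kif23, a cytokinesis kinesin, by 0.24 ± 0.13 with nano ZnO (adjusted p = 0.525). In pregnant mice given micro ZnO 3 of 16 neutrophil and myeloid precursor markers were higher, among them S100a8 (2.23 ± 0.41); that count was 1 on leaving out untreated replicate 1 or 3 or replicate 3 or 4 of the micro ZnO arm, and 5 without its replicate 2.

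**Figure D2:**
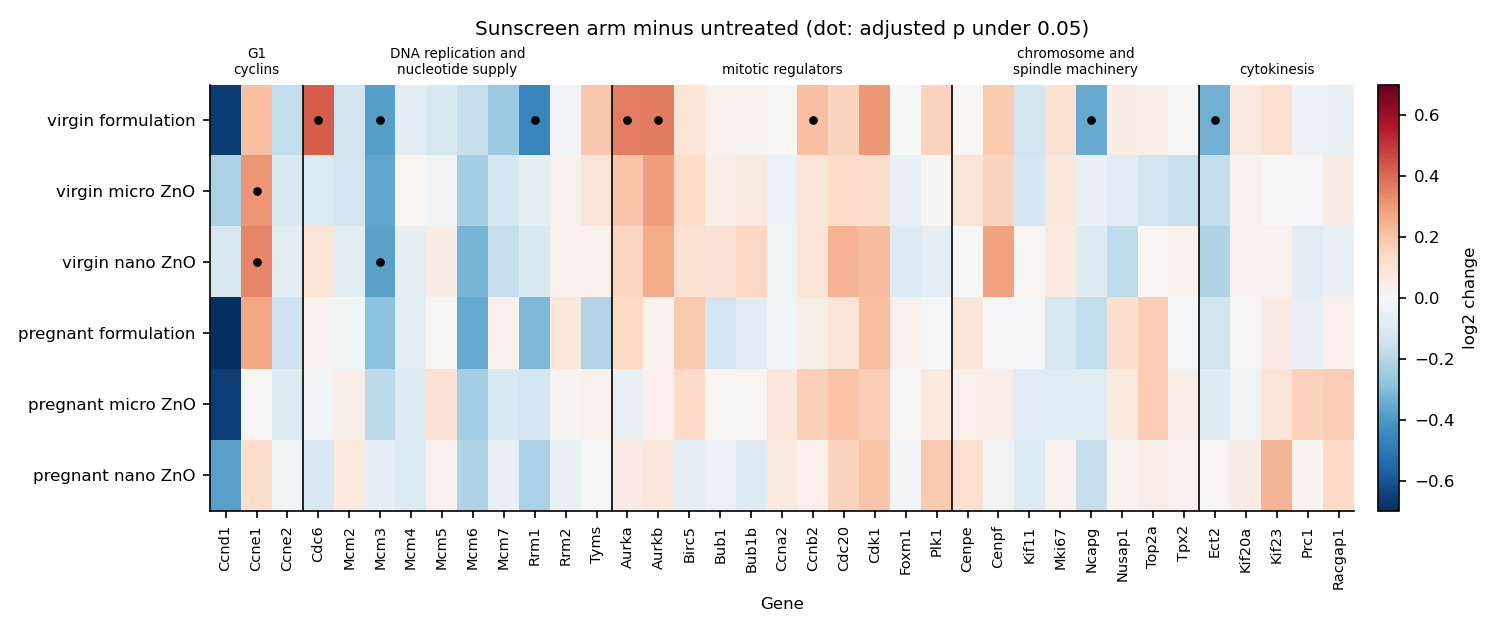
Log2 change of each of the 37 genes (columns, grouped by role) in each sunscreen arm against the untreated mice of its experiment (rows); red is higher, blue lower, and a dot marks an adjusted p under 0.05 in limma. Dots stand in the virgin rows alone, 8 with formulation, 1 with micro ZnO and 2 with nano ZnO, and Ccnd1 is darkest blue with formulation in both experiments, with no dot.

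A sunscreen response that is called in virgin and not in pregnant mice is not thereby shown to differ, so the difference was tested as an interaction. Here 0 of 37 genes were called for formulation, micro ZnO or nano ZnO, with 0.175%, 0.0427% and 0.0384% of all probe sets called. At an unadjusted p under 0.05 there were 3, 3 and 2 genes, with 10.0%, 8.06% and 7.23% of all probe sets. The smallest p values belonged to Mcm7 for formulation (0.37 ± 0.16, adjusted p = 0.42), Top2a for micro ZnO (0.37 ± 0.14, adjusted p = 0.443) and Cenpf for nano ZnO (-0.27 ± 0.12, adjusted p = 0.667). Cdc6, called in virgin mice with formulation, had an interaction of -0.35 ± 0.17 (adjusted p = 0.476).

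The larger contrasts of these genes lay between pregnant and virgin mice. Mki67 was 1.69-fold to 1.90-fold higher in pregnant mice in the 4 arms, Ccne2, cyclin E2, 1.60-fold to 1.63-fold higher, and Cdc6 1.32-fold to 1.82-fold higher. The genes did not move as a body: 9 rose and 7 fell in untreated mice, 9 and 6 with formulation, 9 and 5 with micro ZnO, and 7 and 9 with nano ZnO. As shares these are 43.2%, 40.5%, 37.8% and 43.2%, where 31.8%, 38.6%, 35.8% and 35% of all probe sets were called. By direction those were 14%, 18%, 16.2% and 16.1% higher and 17.8%, 20.6%, 19.6% and 18.9% lower. The median change of the genes was 0.01, -0.01, 0.01 and 0.07, against -0.02, -0.02, -0.02 and -0.01 for all probe sets. Groups did not overlap for 8, 8, 8 and 7 genes (21.6% in the first 3 arms and 18.9% in the last), against 16.8%, 17.3%, 17% and 13.7%. These comparisons were made after joint quantile normalization of all 46 arrays. The deposited values of pregnant mice lay lower as a whole. On them the median change of all probe sets was -0.61, -0.62, -0.62 and -0.61 in the 4 arms. That of the cell cycle genes was -0.70, -0.77, -0.72 and -0.68. Joint quantile normalization gives every array the same distribution of values. A change is therefore read relative to probe sets of similar rank, and not to the middle of all probe sets. In every arm the interquartile ranges of pregnant arrays lay above those of virgin arrays, as in untreated mice (3.14 to 3.22 against 2.90 to 3.09). As a covariate this range is largely confounded with pregnancy, and a call can be lost through a wider standard error alone. With each array's interquartile range as a covariate 11, 5, 7 and 7 genes were called. No share of all probe sets is given beside these counts. The called genes included 9, 3, 6 and 7 of the calls above. Those kept were Mki67 and Ccne2 in all 4 arms, Cdc6 in all but formulation, Ncapg untreated and with both particles, Plk1 and Rrm1 with both particles, Ccne1 untreated and with formulation, Top2a untreated and with nano ZnO, and Bub1b, Nusap1 and Racgap1 untreated. Pregnant micro ZnO replicates 3 and 4 were distant from the remaining arrays of that experiment on the first principal component of all named probe sets, with scores of -47.1 and -31.2 against -12.5 to 19.5. Without them 8 genes were called in that arm, 7 higher and 1 lower, and Mki67, Ccne2, Cdc6 and Kif20a were among those higher. The 6 that no longer passed were Ccnd1, Ncapg, Bub1b, Plk1, Nusap1 and Rrm1.

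Called higher in all 4 arms were Mki67, Ccne2, Cdc6 and Kif20a, a kinesin of cytokinesis, 4 of 37 genes (10.8%) against 7.21% of all probe sets. All 4 are dim, below the 40th percentile of mean signal, so none of them is tested when dim probe sets are left out. With the covariate of array spread Mki67 and Ccne2 were called in all 4 arms. Cdc6 and Kif20a were not, though the rise of neither gene was smaller with it. None was called lower in all 4, against 8.92%. The sign was the same in all 4 arms for 29 genes (78.4%), against 63.7%. The arms share no mice, but they share the 2 experiments and the normalization. Of the rest, 20 genes were called in at least 1 arm and 13 in none. No such count over all probe sets is given, so these counts cannot be ranked against it. Each array is shown in the plot of levels in the 8 groups.

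Mki67, which coats mitotic chromosomes, ran from 2.90 to 3.22 (median 3.06) in virgin untreated mice and read 4.38, 3.79, 3.93, 3.76 and 4.09 in pregnant untreated ones. With formulation it ran from 2.99 to 3.15 (median 3.08) and from 3.70 to 3.96 (median 3.83). With micro ZnO it ran from 3.03 to 3.17 (median 3.09) and read 3.91, 3.96, 3.89, 3.77 and 3.94. With nano ZnO it ran from 2.88 to 3.34 (median 3.07) and from 3.73 to 4.15 (median 3.99). No pregnant array overlapped a virgin array in any arm. The differences were 0.93 ± 0.09, 0.76 ± 0.08, 0.80 ± 0.09 and 0.90 ± 0.08, with adjusted p of 5.39e-11, 1.53e-09, 1.85e-09 and 2.63e-11. Centring each array on its median gave 0.87, 0.72, 0.75 and 0.87, and the covariate of array spread gave 0.98, 0.84, 0.87 and 0.96, all called. On the deposited values with no joint scale Mki67 was at 0.17, -0.05, 0.01 and 0.14, against the overall shift of about -0.61.

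Ccne2 ran from 2.53 to 2.93 (median 2.62) in virgin untreated mice and read 3.32, 3.11, 3.59, 3.63 and 3.11 in pregnant untreated ones. The sunscreen arms gave 2.37 to 2.69 (median 2.44) against 2.97 to 3.31 (median 3.19) for formulation and 2.45 to 2.87 (median 2.55) against 3.06 to 3.51 (median 3.32) for nano ZnO. The micro ZnO arrays gave 2.37 to 2.80 (median 2.54) against 3.33, 3.51, 3.18, 3.02 and 3.22. The groups lay apart in each arm, and the differences were 0.68 ± 0.10, 0.69 ± 0.09, 0.69 ± 0.10 and 0.71 ± 0.09 for untreated, formulation, micro ZnO and nano ZnO (largest adjusted p = 7.14e-07). The other E cyclin, Ccne1, was called higher untreated (0.29 ± 0.10) and with formulation (0.40 ± 0.10) and not with the particles. Ccnd1 pointed the other way. It ran from 7.04 to 8.42 (median 7.29) in virgin untreated mice and read 7.47, 6.39, 6.90, 6.20 and 7.83 in pregnant ones. With micro ZnO it ran from 6.25 to 7.91 (median 7.43) and read 6.31, 6.48, 6.34, 5.68 and 6.81, and with nano ZnO it ran from 7.06 to 7.84 (median 7.32) and from 6.36 to 6.96 (median 6.56). The falls were called with micro ZnO (-0.94 ± 0.28, adjusted p = 0.00712) and nano ZnO (-0.77 ± 0.27, adjusted p = 0.0203), and the nano ZnO groups did not overlap. Without pregnant micro ZnO replicates 3 and 4 the first was -0.73 (adjusted p = 0.0804). The nano ZnO call was lost without virgin nano ZnO replicate 2 and on centring each array on its median (-0.50, adjusted p = 0.108). With the covariate of array spread neither call was kept (-0.83, adjusted p = 0.217, and -0.67, adjusted p = 0.306). With formulation Ccnd1 ran from 6.11 to 7.60 (median 6.84) and from 5.85 to 6.85 (median 6.39).

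Among the replication genes, Cdc6 stood alone in rising in every arm. It ran from 3.44 to 3.79 (median 3.57) in virgin untreated mice and read 4.34, 4.66, 4.56, 4.01 and 4.17 in pregnant untreated ones, 0.75 ± 0.12 higher (adjusted p = 4.60e-06). With formulation it ran from 3.69 to 4.21 (median 3.89) and from 4.14 to 4.47 (median 4.33), which overlap, 0.41 ± 0.11 higher (adjusted p = 0.00425). With the covariate of array spread that arm gave 0.56 and lost the call (adjusted p = 0.0622). With micro ZnO it ran from 3.13 to 3.61 (median 3.51) and read 3.92, 4.54, 4.53, 4.64 and 3.89, 0.86 ± 0.12 higher. With nano ZnO it ran from 3.55 to 3.70 (median 3.60) and from 4.04 to 4.47 (median 4.16), 0.58 ± 0.11 higher. The helicase that Cdc6 loads did not rise with it. Of its 6 subunits Mcm7 was called higher with formulation (0.42 ± 0.11), Mcm5 lower untreated (-0.28 ± 0.08) and with nano ZnO (-0.28 ± 0.08), and Mcm2, Mcm3, Mcm4 and Mcm6 were called in no arm. Mcm6 had a median of 4.48 and a highest value of 5.18 in virgin untreated mice and read 4.78, 4.22, 4.65, 4.83 and 4.24 in pregnant ones, all within the virgin range. In the sunscreen arms it ran from 4.01 to 4.55 (median 4.31) against 3.76 to 4.36 (median 4.22) with formulation and from 4.00 to 4.33 (median 4.14) against 4.11 to 4.53 (median 4.26) with nano ZnO. With micro ZnO it ran from 4.02 to 4.56 (median 4.29) and read 4.12, 4.29, 4.05, 4.48 and 4.51. Rrm1 was lower with micro ZnO (-0.30 ± 0.10) and nano ZnO (-0.34 ± 0.09), and Rrm2 and Tyms were not called.

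**Figure D3:**
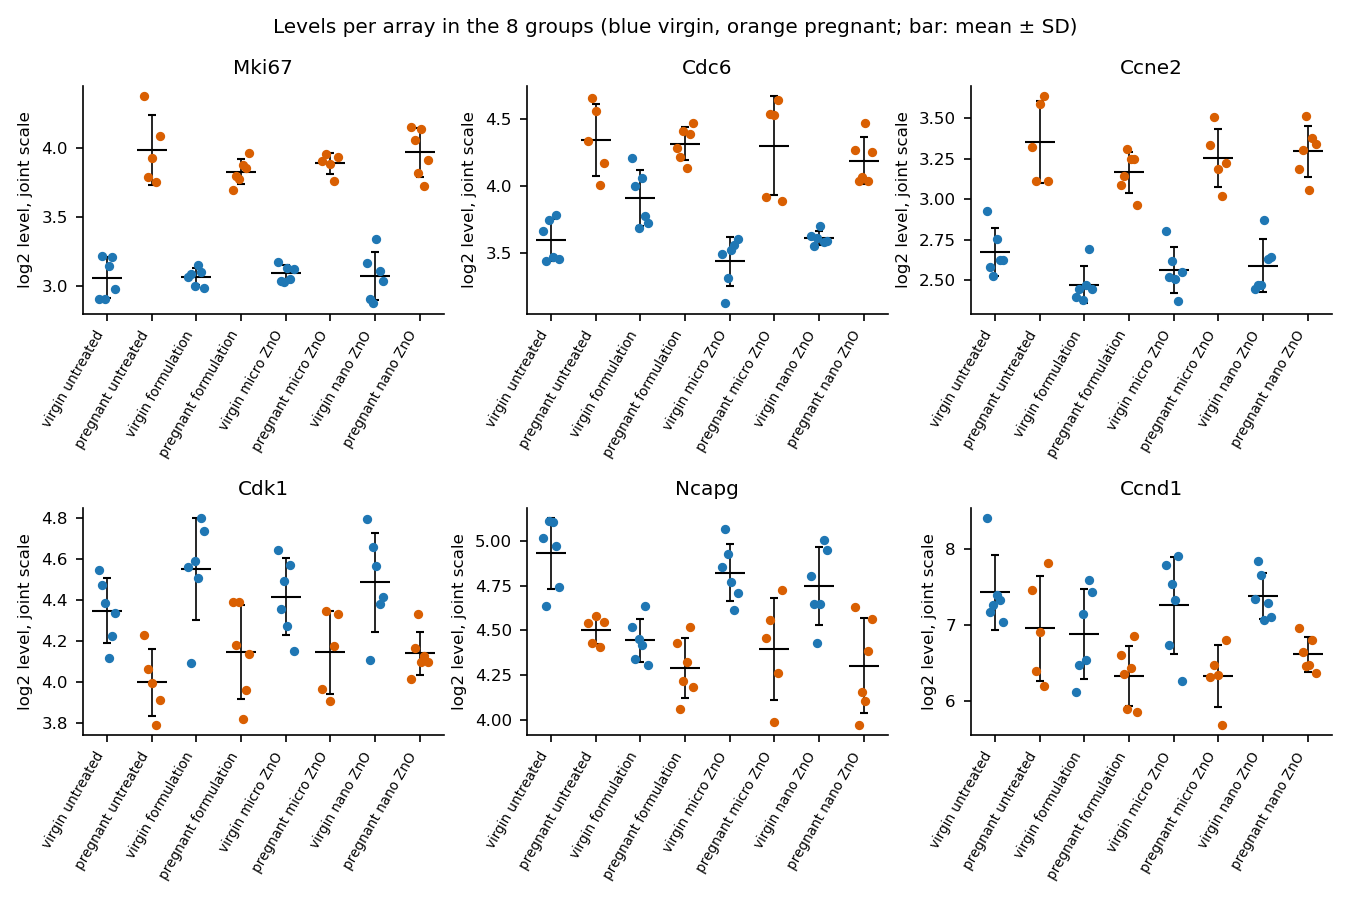
Log2 level on the joint scale of Mki67, Cdc6, Ccne2, Cdk1, Ncapg and Ccnd1 in each array of the 8 groups, blue virgin and orange pregnant, with the group mean and SD as a bar. Pregnant arrays lie above virgin arrays of their arm without overlap for Mki67 and Ccne2, and for Cdc6 in every arm but formulation; Cdk1, Ncapg and Ccnd1 have lower means in pregnant mice in all 4 arms.

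The mitotic regulators split. Cdk1 ran from 4.12 to 4.55 (median 4.36) in virgin untreated mice and read 4.23, 4.07, 4.00, 3.79 and 3.91 in pregnant ones. With formulation it ran from 4.10 to 4.80 (median 4.58) and from 3.82 to 4.39 (median 4.16), and with nano ZnO from 4.11 to 4.79 (median 4.49) and from 4.02 to 4.33 (median 4.11). The ranges overlapped in each case, and the falls of -0.35 ± 0.12, -0.40 ± 0.11 and -0.35 ± 0.11 were called (adjusted p = 0.0189, 0.00355 and 0.0131). The untreated call was lost without pregnant untreated replicate 4. With micro ZnO it ran from 4.15 to 4.65 (median 4.43) and read 3.96, 4.35, 3.91, 4.18 and 4.33, and was not called (adjusted p = 0.065). With the covariate of array spread none of the 3 calls was kept. Plk1, the Polo kinase, went up: from 3.66 to 4.45 (median 3.96) in virgin untreated mice to 4.36, 3.96, 4.54, 4.42 and 4.41, and by 0.60 ± 0.12 with nano ZnO (adjusted p = 8.96e-05), from 3.50 to 4.37 (median 3.77) to 4.17 to 4.60 (median 4.54). Its untreated rise of 0.32 ± 0.12 (adjusted p = 0.0399) was lost without any 1 of virgin untreated replicates 1, 2, 3 or 6 or pregnant untreated replicates 1, 3, 4 or 5. Bub1b, a checkpoint kinase, was higher in 3 arms (0.28 ± 0.08 untreated, 0.24 ± 0.07 formulation, 0.26 ± 0.08 micro ZnO), as was Ccnb2 (0.24 ± 0.08 untreated, 0.34 ± 0.08 micro ZnO, 0.21 ± 0.08 nano ZnO). Cdc20 was lower with formulation and nano ZnO (-0.26 ± 0.09 and -0.31 ± 0.09), Aurka with formulation and micro ZnO, Aurkb with formulation and Birc5 with nano ZnO. Bub1, Ccna2 and Foxm1, the factor that drives many mitotic genes, were called in no arm.

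Chromosome and spindle genes also split, and Cenpe and Cenpf were called in no arm. Ncapg ran from 4.64 to 5.11 (median 5.00) in virgin untreated mice and read 4.54, 4.43, 4.58, 4.41 and 4.55 in pregnant ones, below every virgin array (-0.43 ± 0.12, adjusted p = 0.00367). With micro ZnO and nano ZnO it was at -0.43 ± 0.12 and -0.45 ± 0.11, and with formulation it ran from 4.31 to 4.63 (median 4.43) and from 4.06 to 4.52 (median 4.27) with no call. Without pregnant micro ZnO replicates 3 and 4 that arm gave -0.24 (adjusted p = 0.139). Nusap1 was lower untreated (-0.38 ± 0.07), with formulation (-0.22 ± 0.07) and with micro ZnO (-0.19 ± 0.07). It ran from 2.75 to 2.97 (median 2.83) in virgin untreated mice and read 2.61, 2.58, 2.33, 2.50 and 2.38 in pregnant ones, below every virgin array. Tpx2, which nucleates spindle microtubules, was lower untreated (-0.30 ± 0.08), with formulation (-0.23 ± 0.07) and with nano ZnO (-0.25 ± 0.07). Kif11, the kinesin that separates the spindle poles, was higher in 3 arms (0.26 ± 0.08 untreated, 0.39 ± 0.08 formulation, 0.32 ± 0.08 micro ZnO). With formulation it ran from 2.41 to 2.71 (median 2.56) in virgin and from 2.82 to 3.26 (median 2.89) in pregnant mice, with no overlap. Top2a, which untangles DNA and is often read beside Mki67 as a marker of dividing cells, ran from 3.30 to 3.65 (median 3.42) in virgin untreated mice and read 3.26, 2.72, 3.02, 2.92 and 3.13 in pregnant ones. That fall of -0.44 ± 0.10 (adjusted p = 0.000681) and the one with nano ZnO (-0.35 ± 0.09, adjusted p = 0.00312), from 3.22 to 3.56 (median 3.38) to 2.85 to 3.42 (median 2.99), were called. Top2a ran from 3.19 to 3.52 (median 3.39) and from 2.89 to 3.39 (median 3.20) with formulation (adjusted p = 0.0799). With micro ZnO it ran from 2.98 to 3.48 (median 3.27) and read 3.21, 2.99, 3.29, 3.42 and 3.13. Its second probe set gave 0.05 (adjusted p = 0.709) untreated and 0.08 (adjusted p = 0.49) with nano ZnO, so the direction of Top2a depends on the probe set.

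Cytokinesis genes were higher where called, apart from Racgap1, which was lower untreated (-0.32 ± 0.10). Kif20a ran from 3.41 to 3.75 (median 3.64) in virgin untreated mice and read 3.84, 3.81, 3.83, 3.98 and 3.82 in pregnant ones. The rises were 0.25 ± 0.07, 0.27 ± 0.07, 0.24 ± 0.07 and 0.30 ± 0.07 (largest adjusted p = 0.00766), and with the covariate of array spread the values were 0.25, 0.27, 0.24 and 0.30 with none called. On centring each array on its median the micro ZnO rise was 0.17 (adjusted p = 0.0604). Ect2 was higher with formulation (0.46 ± 0.10), micro ZnO (0.31 ± 0.11) and nano ZnO (0.45 ± 0.10). With the covariate of array spread none of the 3 was kept (adjusted p = 0.321, 0.588 and 0.22), and the micro ZnO call was also lost without pregnant micro ZnO replicate 5 (0.22, adjusted p = 0.115). With formulation it ran from 3.30 to 3.66 (median 3.47) in virgin and from 3.84 to 4.09 (median 3.91) in pregnant mice, with no overlap. It read 4.49, 3.94, 4.14, 4.07 and 4.01 in pregnant untreated mice, against 3.55 to 4.18 (median 4.01) in virgin ones, with no call. Kif23 and Prc1 were called in no arm. Single arrays also decided other calls between pregnant and virgin mice. Nusap1 with micro ZnO was lost without virgin micro ZnO replicate 1, 4 or 5 or pregnant micro ZnO replicate 1, 2, 4 or 5, and with formulation without pregnant formulation replicate 6. Ccnb2 was lost untreated without virgin untreated replicate 1 or pregnant untreated replicate 3 or 4, and with nano ZnO without virgin nano ZnO replicate 1, 3 or 4 or pregnant nano ZnO replicate 1 or 4. Aurka was lost with formulation without virgin formulation replicate 2 or pregnant formulation replicate 3, and with micro ZnO without virgin micro ZnO replicate 1 or 3 or pregnant micro ZnO replicate 1. Aurkb was lost without virgin formulation replicate 2 or 5 or pregnant formulation replicate 3. Untreated, Ccne1 was lost without pregnant replicate 1 or 2, Kif11 without pregnant replicate 2 and Racgap1 without virgin replicate 1. Rrm1 with micro ZnO was lost without virgin micro ZnO replicate 3, and Birc5 without pregnant nano ZnO replicate 1.

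**Figure D4:**
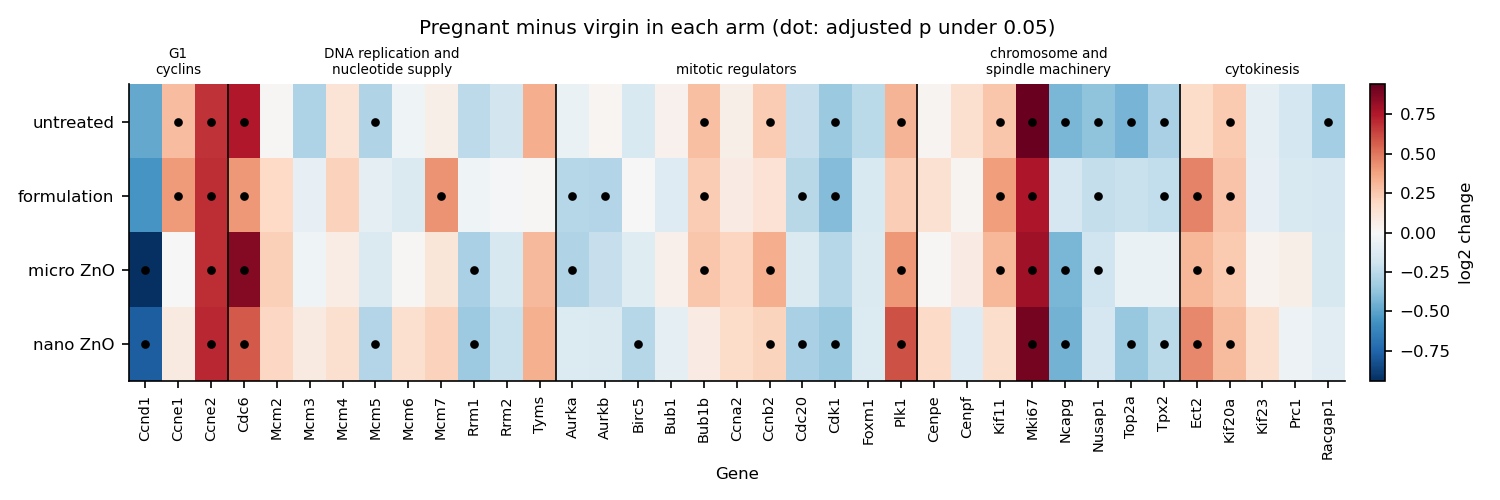
Log2 difference of pregnant minus virgin mice on the joint scale for the 37 genes (columns, grouped by role) in each arm (rows); red is higher in pregnant mice, blue lower, and a dot marks an adjusted p under 0.05 in limma. Mki67, Ccne2, Cdc6 and Kif20a carry dots in all 4 rows, while Cdk1, Ncapg, Nusap1 and Tpx2 are blue in every row and carry dots in 3.

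Some markers of blood cells were called in the same contrast. Of all probe sets 14%, 18%, 16.2% and 16.1% were higher and 17.8%, 20.6%, 19.6% and 18.9% lower in the 4 arms. Of 16 neutrophil and myeloid precursor markers 11, 11, 15 and 14 were higher in pregnant mice in the untreated, formulation, micro ZnO and nano ZnO arms and 0 lower, with median changes of 0.83, 0.94, 1.55 and 1.09. Their mean level ran from 3.81 to 3.95 in virgin untreated and from 4.49 to 4.82 in pregnant untreated mice, and from 3.69 to 4.08 and 5.12 to 6.12 with micro ZnO. Macrophage markers were higher for 1, 1, 11 and 6 of 13. Of 12 erythroid markers 0, 1, 0 and 0 were higher and 1, 1, 2 and 1 lower. These erythroid counts, and the macrophage counts untreated and with formulation, lay below the shares of all probe sets. Outside blood cells, 4, 2, 1 and 2 of 11 hepatocyte markers were higher and 2, 2, 3 and 3 lower. The covariate of array spread gave 6, 2, 12 and 8 neutrophil and 0, 5, 3 and 1 macrophage calls. The macrophage count in untreated mice was 0 without virgin replicate 2, 3, 4 or 5 or pregnant replicate 2 or 3. The part of any of these cell types in the rises of Mki67, Ccne2, Cdc6 and Kif20a was not tested.

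The wider pathway lists, also chosen with earlier results of these data known, held calls in both directions too, in unequal numbers for some lists. With formulation in virgin mice 6 of 21 cell cycle inhibitors rose and 1 fell (33.3%, against 26.5% of all probe sets). They included the antiproliferative Btg2 (2.58 ± 0.25) and the stress-induced Gadd45g (1.78 ± 0.26), Gadd45b (1.42 ± 0.28) and Gadd45a (1.00 ± 0.23). Against formulation, Btg2 was lower by -2.02 ± 0.25 with micro ZnO and -1.22 ± 0.25 with nano ZnO. Of the inhibitors 1 rose and 2 fell with micro ZnO against untreated (14.3%, against 4.43%). With nano ZnO 2 rose and 2 fell (19%, against 11.9%). Leaving out 1 array gave 1 to 3 and 3 to 5 called, and the covariate of array spread 0 and 2. Of 35 G1 and S-phase control genes 1 rose and 6 fell (20%), among them Ccnh (-0.52 ± 0.11) and Cdk7 (-0.38 ± 0.13), which together activate other cyclin-dependent kinases. That count of 7 was 4 without formulation replicate 2 or untreated replicate 3, 3 without untreated replicate 1 and 2 without formulation replicate 5. Of the same list 1 gene rose and 1 fell with micro ZnO (5.71%, against 4.43%) and 3 rose and 2 fell with nano ZnO (14.3%, against 11.9%), with Wee1, which holds Cdk1 inactive, at 1.09 ± 0.22 and 0.76 ± 0.22. Of 40 further replication genes 3 rose and 7 fell (25%) with formulation, with Tipin, a replication fork protein, at -0.64 ± 0.10 and Ung, a uracil glycosylase, at 0.44 ± 0.08. Without formulation replicate 5 that count of 10 was 6. Of 58 further mitosis genes 7 rose and 2 fell (15.5%), with Cdca2 at 0.38 ± 0.10. Median changes were 0.12 for the inhibitors, 0.03 for G1 and S-phase, -0.04 for replication and 0.05 for mitosis, against 0.03 for all probe sets. With the covariate of array spread 2 inhibitors and 0 genes of the other 3 lists were called with formulation. In pregnant mice 0 genes of these 4 lists were called against untreated. Tested as an interaction, the formulation response of 3 of 21 inhibitors was lower in pregnant than in virgin mice (14.3%, against 0.175% of all probe sets). They were Btg2 (-2.79 ± 0.42, adjusted p = 0.000559), Gadd45g (-1.97 ± 0.43, adjusted p = 0.0364) and Gadd45a (-1.32 ± 0.29, adjusted p = 0.038), named after their values were seen. The count was 1 with the covariate of array spread, with all probe sets tested, with an intensity trend, on deposited values, or with arrays centred on their medians. It was also 1 without virgin formulation replicate 1 or 5, virgin untreated replicate 2, 3 or 4, pregnant formulation replicate 2, 4 or 5, or pregnant untreated replicate 2 or 5. Between pregnant and virgin untreated mice 10 of 58 mitosis genes were higher and 9 lower (32.8%, against 31.8%), Ccnf, a cyclin that targets proteins for destruction, by 1.98 ± 0.36 and Spc24, a kinetochore protein, by -0.82 ± 0.11. Ccnf was higher in the other arms too, by 1.82 ± 0.35, 1.59 ± 0.36 and 1.75 ± 0.35. Replication genes gave 6 higher and 5 lower (27.5%) and G1 and S-phase genes 4 and 2 (17.1%), with Ccnd3, cyclin D3, at -0.65 ± 0.09 and E2f5 at 0.55 ± 0.10. Of 21 inhibitors 4 were higher and 2 lower untreated (28.6%), and 1 higher and 7 lower with formulation (38.1%, against 38.6%). With micro ZnO 3 were higher and 3 lower (28.6%, against 35.8%), and with nano ZnO 1 and 4 (23.8%, against 35%). The covariate of array spread gave 2, 0, 2 and 2 inhibitors called in the 4 arms.

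Within groups the correlations between the 37 genes from mouse to mouse were mostly weak. Over the 666 pairs of genes, the correlation of deviations from the group means across 46 arrays had a median of 0.11, an interquartile range of -0.02 to 0.23 and a span of -0.41 to 0.52. Only 2 pairs passed 0.5, Cenpf with Birc5 (0.52) and Mcm6 with Ect2 (0.51). By role the median was 0.17 among mitotic regulators and 0.03 among cytokinesis genes. The pairs share arrays and normalization, and this is a description with no test. No such correlations of other probe sets are given, so the values cannot be ranked against them. The within-group SD had a median of 0.17 for the genes and 0.17 for all named probe sets, and was largest for Ccnd1 at 0.49.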

How the data were processed

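The series holds 46 mouse liver arrays. Per the submitters' processing notes the authors normalized them with RMA, and the deposited values are log2 intensities. Array medians lay between 4.66 and 4.90 in the virgin and between 3.98 and 4.12 in the pregnant experiment; whether these were normalized separately is not given in the sources used here. No detection calls or scan dates were used, so precision rests on how many arrays a group has. All 46 columns were used.

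Arms were compared within an experiment on the deposited values with limma 3.58.1 in R 4.3.3 (4 arms, 1 model). Pregnant minus virgin and the interactions were fitted on 8 groups after joint quantile normalization. Tests were two-sided and adjusted by Benjamini-Hochberg over 23410 probe sets. The procedure was tested on simulated data. The genes, pathway and marker lists, comparisons and rules were chosen with earlier results of these data known. Of the members, all may be named; other lists name up to 4 called genes with the largest change per comparison, or the 2 with the smallest p where none is called. The labels call the replicates biological. Alternatives covered dim probe sets, all probe sets, moderation, array weights, array spread, replicate block, scaling, second probe sets, groups alone and left-out arrays.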

Additional observations from a re-analysis of the deposited data

Results flagged for a closer look

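In 13 of 304 sets of 5 or 6 values (the 37 genes and their mean, 8 groups, deposited log2 scale), 1 array lay far from the others of its group by Dixon's criterion, and chance gives about 1 in 20. Among the genes named for their changes, Ccnd1 was high in virgin untreated replicate 1 (8.74, next 7.68), Rrm1 low in pregnant nano ZnO replicate 3 (4.40, next 4.80) and Cdk1 high in the same array (4.00, next 3.75). Ccne2 was high in virgin formulation replicate 5 (3.11, next 2.77), Kif20a high in pregnant untreated replicate 4 (3.51, next 3.40) and Ect2 high in virgin micro ZnO replicate 5 (4.28, next 4.07). Kif23 was high in pregnant nano ZnO replicate 1 (3.57, next 2.89). Tpx2 was low in virgin untreated replicate 1 (3.85, next 4.05) and high in virgin formulation replicate 5 (4.36, next 4.07). Low values were also read for Ccna2 in virgin micro ZnO replicate 6 (3.57, next 3.65), Bub1b in pregnant formulation replicate 4 (2.85, next 3.05), Cenpe in virgin formulation replicate 3 (2.57, next 2.87) and Cdc20 in virgin formulation replicate 4 (5.40, next 5.50). Outside the 37 genes, the change with formulation differed between pregnant and virgin mice by the interaction in limma for Btg2 (-2.79), Gadd45g (-1.97) and Gadd45a (-1.32), each rising in virgin mice. The count of inhibitors called there was 1 with the covariate of array spread and in 10 of 23 fits that left out 1 array.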

How the results depend on the processing

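Most of these genes are dim, and no detection calls were used, so small changes near background cannot be told from none. Calls with formulation in virgin mice rest on arrays whose overall spread differs. Leaving out 1 array gave 5 to 11 called genes for virgin formulation, 0 to 3 for micro ZnO, 1 to 5 for nano ZnO, 2 to 3 and 0 to 4 for micro and nano ZnO minus formulation, and 14 to 18, 13 to 16, 12 to 15 and 14 to 17 for pregnant minus virgin (untreated, formulation, micro ZnO, nano ZnO). The other comparisons stayed at 0.

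For virgin micro ZnO the count of 1 became 0 with all probe sets, array weights, array spread or the replicate block. For virgin nano ZnO the count of 2 became 1 without dim probe sets, with all probe sets, array spread, the replicate block or the compared groups alone, and 4 with a further quantile normalization. For nano ZnO minus formulation the count of 3 became 1 without dim probe sets, with all probe sets, the replicate block or a further quantile normalization, and 0 with array spread or the compared groups alone. For micro ZnO minus formulation array spread gave 1, and for virgin formulation 0. Over 67 same-numbered pairs of arrays deviations correlated at -0.35 to 0.23, and 13 passed 0.1. In virgin mice only micro ZnO with untreated had any such pair (1 of 6). In pregnant mice the comparisons had 0 to 3 of 5 or 6, with 3 of 5 for formulation with untreated. Differently numbered pairs are not given beside them, so these values do not settle whether replicate numbers pair the mice. Over the 78 calls the replicate block ended 6.

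For pregnant minus virgin the counts became 4, 5, 5 and 6 without dim probe sets (fewer of the genes were tested), and with array spread 5 for formulation and 7 each for micro and nano ZnO; Aurka turned to 0.016 and Cdc20 to 0.075 with formulation. Without pregnant micro ZnO replicates 3 and 4, which lay apart, 8 were called. Top2a's second probe set gave 0.049 untreated and 0.080 with nano ZnO. Centring arrays on their medians gave 9 higher and 8 lower, 11 and 6, 9 and 3, and 11 and 6; of all called probe sets 69.2%, 74.6%, 72.0% and 73.7% were then higher, against 43.9% to 46.6%. Centring and scaling gave 12 and 8, 12 and 3, 14 and 4, and 12 and 9, and turned Nusap1 to 0.018 with micro ZnO. Of all called probe sets 59.6%, 66.2%, 62.0% and 64.4% were higher on that scale.

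Deposited values with no joint normalization, shifted as a whole, gave 33, 35, 34 and 33 called, all lower, and a median level in virgin untreated mice of 4.34 in place of 4.04. Of all called probe sets only 0.902%, 1.43%, 1.49% and 0.997% were higher on the deposited values. Turned there were, untreated, Ccnb2 (-0.47), Ccne1 (-0.37), Ccne2 (-0.038), Bub1b (-0.48), Plk1 (-0.40), Kif11 (-0.43) and Kif20a (-0.51). With formulation they were Mki67 (-0.047), Ccne1 (-0.31), Ccne2 (-0.012), Bub1b (-0.59), Kif11 (-0.32), Kif20a (-0.57), Mcm7 (-0.24), Cdc6 (-0.39) and Ect2 (-0.37). With micro ZnO they were Ccnb2 (-0.39), Ccne2 (-0.026), Bub1b (-0.53), Plk1 (-0.35), Kif11 (-0.39), Kif20a (-0.56) and Ect2 (-0.48), and with nano ZnO Ccnb2 (-0.54), Plk1 (-0.16), Kif20a (-0.49), Cdc6 (-0.20) and Ect2 (-0.34). Causes of the other moves were not tested.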
